A study of Homo sapiens with 9 samples.

Results

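The accessible sites described here are those at the insulin-like growth factor genes IGF2 and INS, the neighbouring non-coding RNA gene H19, and the receptor genes IGF1R, IGF2R and INSR. They were taken from 4 ATAC-seq peak lists of HEK293T, an established cell line from human embryonic kidney. ATAC-seq marks open chromatin by the insertion of adapters with the Tn5 transposase. A peak was a member when it lay in the body of 1 of these 6 genes or within 50 kb of it. Peaks of the 4 lists that shared at least 1 bp were joined into regions, and a region was kept with all its peaks when any part of it reached a window. This gave 60 regions of 71597 in all, built from 37 peaks of 39194 in the control list, 46 of 50917 in the IGF2BP1 KO list, 49 of 60262 in the IGF2BP2 KO list and 44 of 44041 in the IGF2BP3 KO list, where KO stands for knockout.

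The control cells carried a guide that targets no mammalian gene, and each knockout was 1 single-cell clone made by transient transfection of plasmids carrying guides and GFP against IGF2BP1, IGF2BP2 or IGF2BP3, so the effects of genotype and of clone cannot be told apart. No group had any further treatment. The labels give 2 control libraries (batches 2 and 3), 3 IGF2BP1 KO libraries (batches 1, 2 and 3) and 2 libraries (batches 2 and 3) for each of the other knockouts, so batch 1 enters the IGF2BP1 KO list alone and its part in that list was not tested. Each group is represented by a single list of peak positions with no height and no score, so the differences below have no replicate spread to be measured against, no test was made, and read depth is unknown. A longer list may hold more weak peaks, which cannot be checked without scores. Counts over the members are therefore set beside the share of all regions of the genome. Because all 3 knockouts are set against the same control list, gains and losses in different knockouts are not independent of each other. Peak width, and its percentile among the widths of its own list, stands in for a score.

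The IGF2BP proteins are RNA-binding proteins named for their binding to IGF2 messenger RNA. IGF2 is a fetal growth factor that signals through the receptor tyrosine kinases encoded by IGF1R and INSR, whereas the IGF2R protein, which also sorts lysosomal enzymes, binds IGF2 and carries it to degradation. IGF2 and H19 are reciprocally imprinted on chromosome 11: on the maternal copy, the insulator protein CTCF binds a control region just upstream of H19 and keeps downstream enhancers from IGF2, and on the paternal copy this region is methylated. The lists do not separate the parental copies.

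The promoters of the 3 receptors and those of H19 and INS differed in sequence and in accessibility, so the 250 bases before each start site are shown first. They are from RefSeq (GRCh38.p14), read 5′ to 3′ on the strand of the gene, with every CG dinucleotide in capitals. 5 of the 6 genes had an entry, and IGF2 was not among them. The IGF2R bases are chr6:159968832-159969081 (plus strand), those of IGF1R chr15:98648289-98648538 (plus strand), those of INSR chr19:7294415-7294664 (minus strand), those of INS chr11:2161210-2161459 (minus strand) and those of H19 chr11:2001267-2001516 (minus strand).
IGF2R: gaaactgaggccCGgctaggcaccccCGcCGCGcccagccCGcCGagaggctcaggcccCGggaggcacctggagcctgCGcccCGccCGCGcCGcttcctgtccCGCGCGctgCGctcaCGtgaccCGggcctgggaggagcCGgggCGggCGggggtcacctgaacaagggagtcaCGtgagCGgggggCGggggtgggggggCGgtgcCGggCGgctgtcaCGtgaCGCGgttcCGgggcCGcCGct
IGF1R: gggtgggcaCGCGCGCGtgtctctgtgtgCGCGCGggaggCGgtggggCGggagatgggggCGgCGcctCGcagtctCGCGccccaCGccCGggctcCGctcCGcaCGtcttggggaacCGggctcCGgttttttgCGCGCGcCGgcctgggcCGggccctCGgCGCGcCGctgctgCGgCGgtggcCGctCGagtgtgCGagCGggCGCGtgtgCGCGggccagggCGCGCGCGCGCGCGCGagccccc
INSR: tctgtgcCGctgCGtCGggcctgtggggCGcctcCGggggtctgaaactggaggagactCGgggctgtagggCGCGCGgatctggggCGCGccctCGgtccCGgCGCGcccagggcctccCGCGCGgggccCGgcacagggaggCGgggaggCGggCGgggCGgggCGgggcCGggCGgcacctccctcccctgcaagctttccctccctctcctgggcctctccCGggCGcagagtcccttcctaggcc
INS: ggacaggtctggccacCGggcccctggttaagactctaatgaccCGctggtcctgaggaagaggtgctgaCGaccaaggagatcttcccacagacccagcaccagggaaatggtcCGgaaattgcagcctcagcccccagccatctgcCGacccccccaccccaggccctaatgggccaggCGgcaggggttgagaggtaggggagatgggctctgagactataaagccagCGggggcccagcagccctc
H19: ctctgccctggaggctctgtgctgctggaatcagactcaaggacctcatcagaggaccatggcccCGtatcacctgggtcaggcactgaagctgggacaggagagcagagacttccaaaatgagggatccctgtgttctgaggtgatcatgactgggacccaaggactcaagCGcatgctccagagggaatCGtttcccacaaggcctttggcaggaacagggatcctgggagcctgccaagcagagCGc

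The receptor promoters were rich in CG, with 48 CG dinucleotides in IGF1R, 33 in IGF2R and 28 in INSR. The INS promoter held 7 and the H19 promoter 4. A single annotated start site was used per gene, so any other promoters of these genes were not examined. All 250 bases were covered by a peak in every list at the 3 receptors, and 0 bases were covered in any list at INS and H19. Over all 35114 promoters of the table, the share with a peak rose from class to class of CG number. It did not keep rising within the highest class: at 48, the number in IGF1R, 14 promoters overlapped a control peak and 6 did not. Of promoters with over 25 CG dinucleotides, 88.6% overlapped a control peak and 86.4 to 90.3% a peak of the knockout lists, against 6.06% and 6.35 to 8.63% of promoters with 0 to 5, the class of H19. In the class of INS, with 6 to 15, 45.4% overlapped a control peak and 46.4 to 48.8% a knockout peak. The GC box GGGCGG, searched on both strands with overlapping matches counted, was found 6 times in IGF2R, 4 times in INSR and 2 times in IGF1R, and 42.6% of all promoters held it. It was not found in INS or H19. The TATA box TATAAA was found in INS alone of the 5, starting 30 bases before the start site, and 10.7% of all promoters held it on either strand. CCAAT, held by 32.0% of promoters, was not found in the 5.

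**Figure D1:**
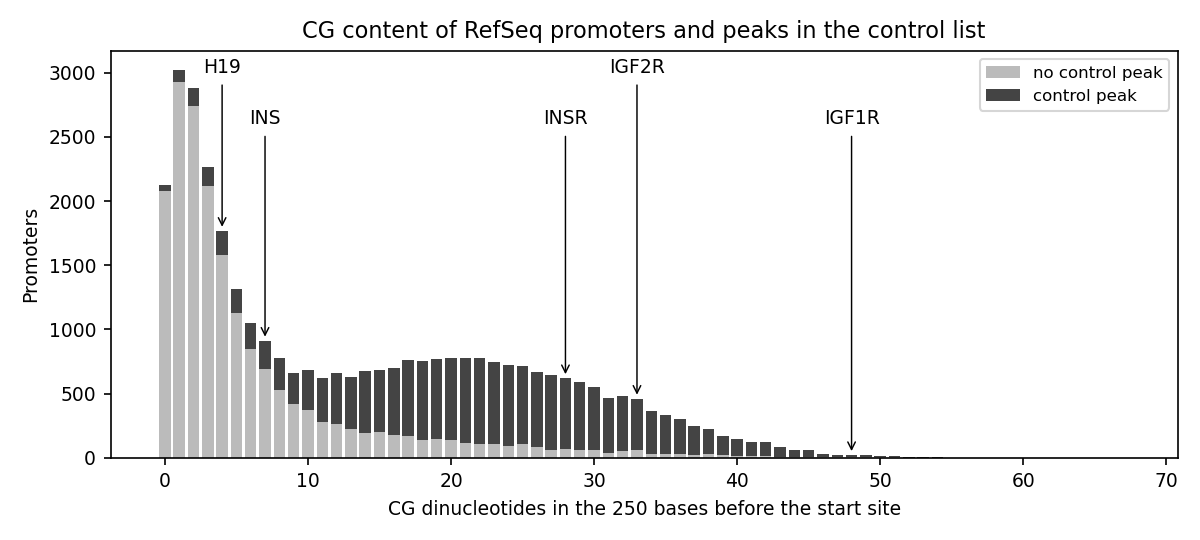
Number of RefSeq promoters (y axis) by the number of CG dinucleotides in the 250 bases before the start site (x axis), split by whether these bases overlapped a peak of the control list. Arrows mark H19 (4) and INS (7) on the side where most promoters had no peak, and INSR (28), IGF2R (33) and IGF1R (48) on the side where most had one.

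The ligand gene IGF2, at chr11:2129117-2149566, held a single accessible region in its body, and it was present in all 4 lists. This region, chr11:2136978-2138310, was covered by peaks of 1141 bp in control cells, 1320 bp in the IGF2BP1 KO, 980 bp in the IGF2BP2 KO and 938 bp in the IGF2BP3 KO. The IGF2BP1 KO peak was thus the widest, at 1.16 times the control, and the other knockout peaks were 0.859 and 0.822 times as wide as the control. Over all regions shared with the control, the median ratio was 1.10 in the IGF2BP1 KO (quartiles 1.00 and 1.28). It was 0.998 in the IGF2BP2 KO (0.876 and 1.12) and 0.979 in the IGF2BP3 KO (0.849 and 1.10). IGF2 is known to use several promoters within its locus. No list had a peak within 1 kb of either annotated end of IGF2. The gene table used gives gene ends without exons, so peaks could not be assigned to exons, introns or UTRs.

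INS, which encodes insulin and is expressed in pancreatic beta cells, lies at chr11:2159779-2161209, close to IGF2. Its body held no peak in any list. Between IGF2 and INS, inside the read-through gene INS-IGF2, there were 2 regions, both present in all 4 lists. The one nearer to IGF2, chr11:2151491-2152425, had widths of 863 bp in the control and 861, 604 and 735 bp in IGF2BP1, IGF2BP2 and IGF2BP3 KO. The one nearer to INS, chr11:2156333-2157062, lay 4.15 kb downstream of the INS start site and had widths of 669, 643, 690 and 550 bp in the same order. Neither differed from the control by 1.5 times, the ratio used here to call a width difference.

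Upstream of INS, the lists differed at TH, the gene of the rate-limiting enzyme of catecholamine synthesis. A region within TH, chr11:2166080-2166801, was held by the IGF2BP1 KO list alone (6.03% of all regions were), with a peak of 722 bp, and the nearest peaks of the other lists were 6.27 to 9.12 kb away. At the microRNA gene MIR4686, chr11:2173075-2173635 was held by the control (497 bp) and the IGF2BP1 KO (556 bp) and was missing from the other lists. The remaining 3 regions on this side, at 2186474 to 2187249, 2194835 to 2195344 and 2197260 to 2197912, were in all 4 lists and narrow, with widths from 365 to 661 bp. On the other side of IGF2, towards H19, chr11:2089061-2089983 was in all 4 lists with widths of 809 to 911 bp. Next to it, chr11:2097196-2098174 was in all 3 knockout lists but absent from the control, as were 6.88% of all regions. Its widths there were 685, 247 and 773 bp, and the IGF2BP2 KO peak was among the narrowest of its list, at percentile 0.4. The nearest control peak was 7.21 kb away.

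At H19 the lists differed just upstream of the annotated start site. The imprinting control region also lies upstream of H19, and its limits were not set against this site. The region chr11:2002147-2003103 began 0.881 kb and ended 1.84 kb upstream of the annotated H19 start site, and it also lies in the annotated span of MRPL23, a gene for a mitochondrial ribosomal protein. The control had a peak of 925 bp there, the IGF2BP1 KO 957 bp and the IGF2BP2 KO 954 bp. The edges of the 3 peaks differed by at most 29 bp at the lower coordinate and at most 3 bp at the higher one. The IGF2BP3 KO list had no peak at this site, and its nearest peak was 22.8 kb away. These were not narrow peaks: they stood at width percentiles 64.0, 62.0 and 77.3 of their lists. The annotated H19 span of 6.09 kb held no peak in any list. A single start site of H19 was used, so any other start inside this span was not examined.

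Regions missing only from the IGF2BP3 KO numbered 5 of the 60 members (8.33%), against 5.15% of all regions, so a region absent from that list alone was not rare. The other 4, at IGF1R and INSR, were narrower. When every list was shortened to its 39194 widest peaks, 1 of the 5, the region upstream of H19, was still held by exactly the same 3 lists. Shortening removes peaks and adds none, so this follows from the peak widths. It does not test the absence from the IGF2BP3 KO list.

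Further regions lay on both sides of H19. On the IGF2 side, chr11:2036433-2037541 was in all 4 lists, with widths of 897 bp in control cells, 866 bp in the IGF2BP1 KO, 538 bp in the IGF2BP2 KO and 512 bp in the IGF2BP3 KO. The last 2 were 0.6 and 0.571 times the control width, and 5.8 and 7.63% of all regions shared with the control were at least 1.5 times narrower in those lists. On the other side, downstream of H19, where enhancers of the locus are known from other tissues, the first peak of any list lay 22.0 kb from the H19 start site, within the MRPL23 span. The site nearest to H19, chr11:1978844-1979300, was in the IGF2BP3 KO list alone (457 bp), as were 4.9% of all regions. The next, chr11:1968832-1969990, was in the IGF2BP2 KO (706 bp) and IGF2BP3 KO (1159 bp) lists. The region chr11:1964186-1964952 was missing only from the IGF2BP1 KO (1.35% of all regions were), with widths of 584 bp in the control, 422 bp in the IGF2BP2 KO and 767 bp in the IGF2BP3 KO. The region chr11:1953387-1953805 was in all 3 knockout lists as a narrow peak (419, 357 and 330 bp, percentiles 4.0, 8.5 and 3.9). The outermost, chr11:1946616-1947815, was in all 4 lists (1024 to 1168 bp).

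Counted over the H19 window, the control held 4 regions of 7, the IGF2BP1 KO 4, the IGF2BP2 KO 6 and the IGF2BP3 KO 6. Over all regions of the genome, the control held 54.2%, the IGF2BP1 KO 70.9%, the IGF2BP2 KO 83.1% and the IGF2BP3 KO 60.8%, and the counts at the other genes are to be read against these shares too. Over the joint window of IGF2 and INS, the 4 lists held 8, 10, 8 and 8 regions of 10. Chromosome 11 as a whole had a smaller share of the IGF2BP2 KO peaks (3.39%) than of the control peaks (4.77%), the IGF2BP1 KO peaks (4.68%) or the IGF2BP3 KO peaks (4.85%). The part of this difference in the IGF2BP2 KO values at IGF2 and H19 was not tested.

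**Figure D2:**
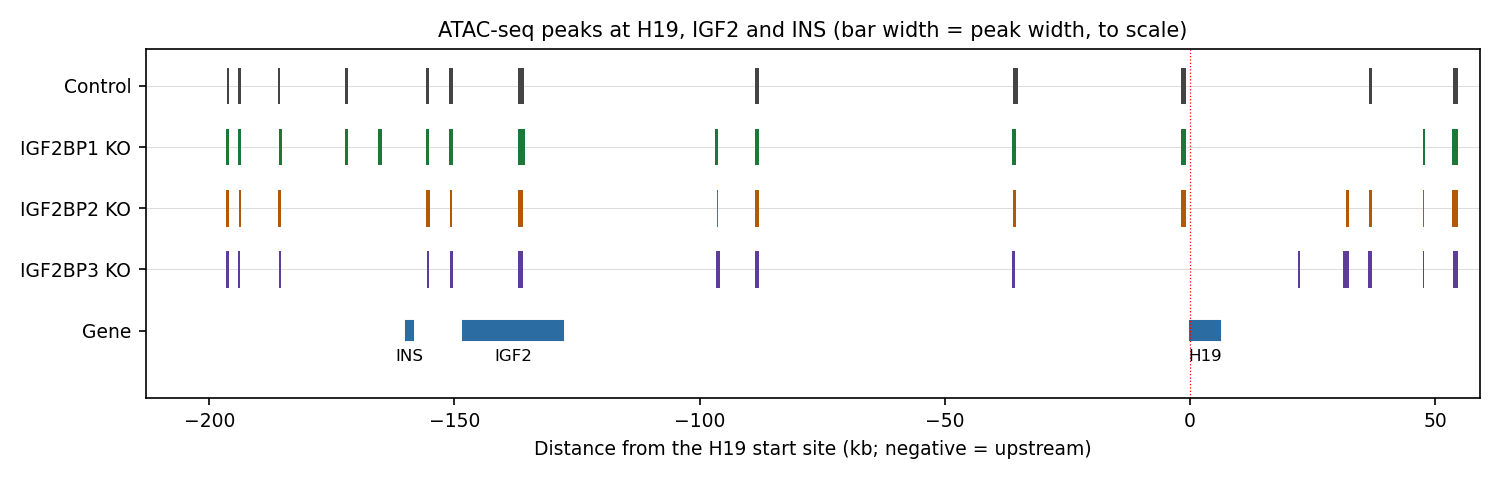
Peaks of each list at H19, IGF2 and INS, drawn to scale against distance from the H19 start site in kb, negative upstream; each bar is 1 peak, and the blue bars are the gene spans. The peak just upstream of H19 is present in the control, IGF2BP1 KO and IGF2BP2 KO lists and absent from the IGF2BP3 KO list, and the IGF2 body holds 1 peak in every list.

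The start sites of the 3 receptor genes were accessible in every list. The IGF2R peak hardly changed: it was 1600 bp wide in the control and 1653, 1590 and 1610 bp in IGF2BP1, IGF2BP2 and IGF2BP3 KO, within chr6:159968519-159970171. The IGF1R peak was 1551 bp in the control and 1516, 1489 and 1661 bp in the knockouts in the same order, within chr15:98647046-98648710. Of the receptors, only INSR had a start-site peak that differed from the control by 1.5 times in any knockout. It was 1483 bp in control cells, 1436 bp in the IGF2BP1 KO and 1507 bp in the IGF2BP2 KO, but 953 bp in the IGF2BP3 KO, 0.643 times the control. The difference lay at the edge inside the gene: the IGF2BP3 KO peak spanned chr19:7294029-7294981 and the control peak chr19:7293517-7294999, so the edges differed by 512 bp inside the gene and by 18 bp upstream of it. Over all 31675 regions shared by the 2 lists, 7.63% were at least 1.5 times narrower in the IGF2BP3 KO, against 2 of 29 member regions (6.9%).

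**Figure D3:**
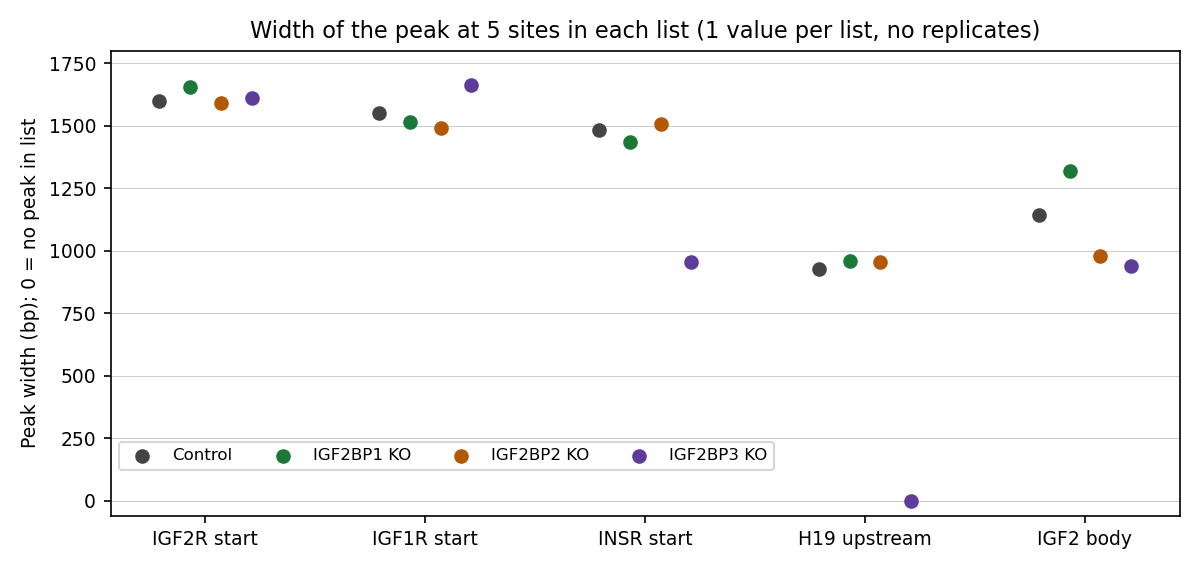
Width in bp (y axis) of the peak at the start sites of IGF2R, IGF1R and INSR, upstream of H19 and in the IGF2 body, with 1 point per list and 0 for no peak. The IGF2BP3 KO point is at 953 bp at INSR, below the other 3, and at 0 upstream of H19.

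Protein-coding genes with a start-site peak of like width in the 4 lists were sought as a description, by the distance of the log2 widths after division by each list's median width, among 10198 genes with a peak in all 4 lists. Closest to IGF2R were RAB3IP (distance 0.0255), SH3GL3 (0.0255) and MRPL39 (0.03). Closest to IGF1R were ZDHHC11B (0.0596), ADGRG6 (0.0664) and NUDT8 (0.0826). Closest to INSR was POLRMT (0.0683), the mitochondrial RNA polymerase gene, with widths of 1480, 1494, 1469 and 957 bp, followed by MAK (0.132) and LOC124900275 (0.154).

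IGF1R, at chr15:98648539-98964530, is the longest of the 6 genes at 316 kb and held the most regions, 25 in its window, of which 20 touched its body. The control held 16 of the 25, the IGF2BP1 and IGF2BP2 KO 20 each and the IGF2BP3 KO 17. In all 4 lists there were 10. Besides the start site, wide regions among these were at 98799345 to 98801091 (1615, 1696, 1346 and 1724 bp in the order control, IGF2BP1, IGF2BP2 and IGF2BP3 KO), where the IGF2BP2 KO list had 2 separate peaks, and at 98852170 to 98853662 (1255, 1493, 1217 and 1260 bp). Another, at 98873446 to 98875024, was 1048 bp in the control and 1579, 1485 and 1143 bp in the knockouts, which put the IGF2BP1 KO at 1.51 times the control (11.7% of all shared regions were at least 1.5 times wider in that list). A region at the edge of the window, 99014437 to 99016042, overlapped the non-coding RNA gene LUNAR1 (1344, 1328, 1354 and 1606 bp). It entered through the last 93 bp of the window, which only the IGF2BP3 KO peak reached. The control, IGF2BP1 KO and IGF2BP2 KO peaks of this region lay wholly beyond the window. They are included in the counts because a region was kept with all its peaks.

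Inside IGF1R, 2 regions were in all 3 knockout lists but absent from the control. At chr15:98896093-98897702, 248 kb into the gene, the peaks were 1332, 1328 and 1390 bp in IGF2BP1, IGF2BP2 and IGF2BP3 KO, at percentiles 85.0, 92.2 and 91 of their lists, and the nearest control peak was 6.74 kb away. At chr15:98667870-98669357, 19.3 to 20.8 kb into the gene, they were 789, 1424 and 1062 bp, at percentiles 45.3, 94.3 and 77.5, with the nearest control peak 8.2 kb away. Another region of this kind lay beyond the gene in PGPEP1L, at chr15:98982964-98983927 (947, 898 and 792 bp). All 3 remained in the 3 knockout lists when each list was shortened to its 39194 widest peaks. That follows from their widths, and this step removes nothing from the control list. The absence from the control was therefore not tested by it. The control alone held 1 region here (1.98% of all regions), chr15:98881558-98881873, of 316 bp, near the lower end of control widths at percentile 2.2.

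Other IGF1R regions set single lists apart. Between 34.1 and 52.2 kb into the gene, only knockout lists had peaks: a peak of 1389 bp in the IGF2BP1 KO alone at 98682659 to 98684047, and one at 98699611 to 98700693 in the IGF2BP1 (1083 bp) and IGF2BP2 (713 bp) knockouts. The IGF2BP3 KO had a peak of its own just inside the gene, at 98649885 to 98650859 (975 bp, percentile 72.1), 1.35 kb after the start site, where the nearest peak of each other list was the one at the start site, 1.18 to 1.31 kb away. The region 98659038 to 98659692 was 637 bp in control cells, 636 bp in the IGF2BP1 KO and 317 bp in the IGF2BP2 KO (0.498 times the control; 5.8% of all shared regions were at least 1.5 times narrower in that list), with no peak in the IGF2BP3 KO. At 98776680 to 98777602 the IGF2BP1 and IGF2BP3 KO peaks (893 and 923 bp) were 1.56 and 1.62 times as wide as the control peak (571 bp), where 11.7 and 4.21% of all shared regions were at least 1.5 times wider. Upstream of the gene, at 98619826 to 98620590, the IGF2BP2 KO peak (765 bp) was 1.77 times the control (432 bp), where 5.1% of all shared regions were at least 1.5 times wider. Of the other 10 regions at IGF1R, 4 were in all 4 lists, 3 in 3 lists, 1 in 2 lists and 2 in 1 list, with widths from 342 to 1153 bp.

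IGF2R, at chr6:159969082-160111504, had the fewest control regions for its number of sites. The control held 3 of 10 regions there, all shared with every knockout, and IGF2BP1, IGF2BP2 and IGF2BP3 KO held 7, 7 and 8. Over the genome, the control held 54.2% of regions and the knockouts 70.9, 83.1 and 60.8%. The 3 regions in all lists were the start site, a site 9.53 to 11.1 kb into the gene at 159978613 to 159980132 (1006 bp in the control and 1012, 1373 and 1000 bp in the knockouts), and a site towards the far end at 160103098 to 160103805 (450, 557, 616 and 543 bp). In all 3 knockouts but absent from the control were 159941481 to 159942179, upstream of the gene (674, 340 and 682 bp), and 160088168 to 160088828, within it (651, 493 and 408 bp). These peaks were narrow for their lists, at percentiles 6.6 to 46.2, and both regions lost the IGF2BP2 KO when the lists were shortened to their widest peaks. A region of 836 bp within the gene, 159996064 to 159996899, was in the IGF2BP3 KO alone. The other 4 regions were in 1 or 2 knockout lists, with widths from 319 to 749 bp. No region at IGF2R was in the control and missing from a knockout.

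INSR, at chr19:7112265-7294414, held the fewest regions for the length of its window. The control held 6 of 8 regions, the IGF2BP1 KO 5, the IGF2BP2 KO 7 and the IGF2BP3 KO 5. A region of 633 bp within the gene, chr19:7262996-7263628, was in the control alone, and the nearest knockout peaks were 29.9 to 30.4 kb away. The widest site in the gene body apart from the start, chr19:7197036-7198660, was 1625 bp in the control and 1390, 1400 and 1406 bp in the knockouts, 95.8 kb into the gene. A region at 7212439 to 7213381 was in the IGF2BP2 KO (477 bp) and the IGF2BP3 KO (892 bp) only, and one at 7159615 to 7160012 (398 bp) in the IGF2BP2 KO only. Upstream, 7340971 to 7341575 was missing only from the IGF2BP3 KO (546 bp in the control, 605 and 371 bp in the others). The 2 regions beyond the far end of INSR, at LOC124904625 (844 to 909 bp) and at the zinc finger gene ZNF557 (893 to 1182 bp), were in all 4 lists.

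**Figure D4:**
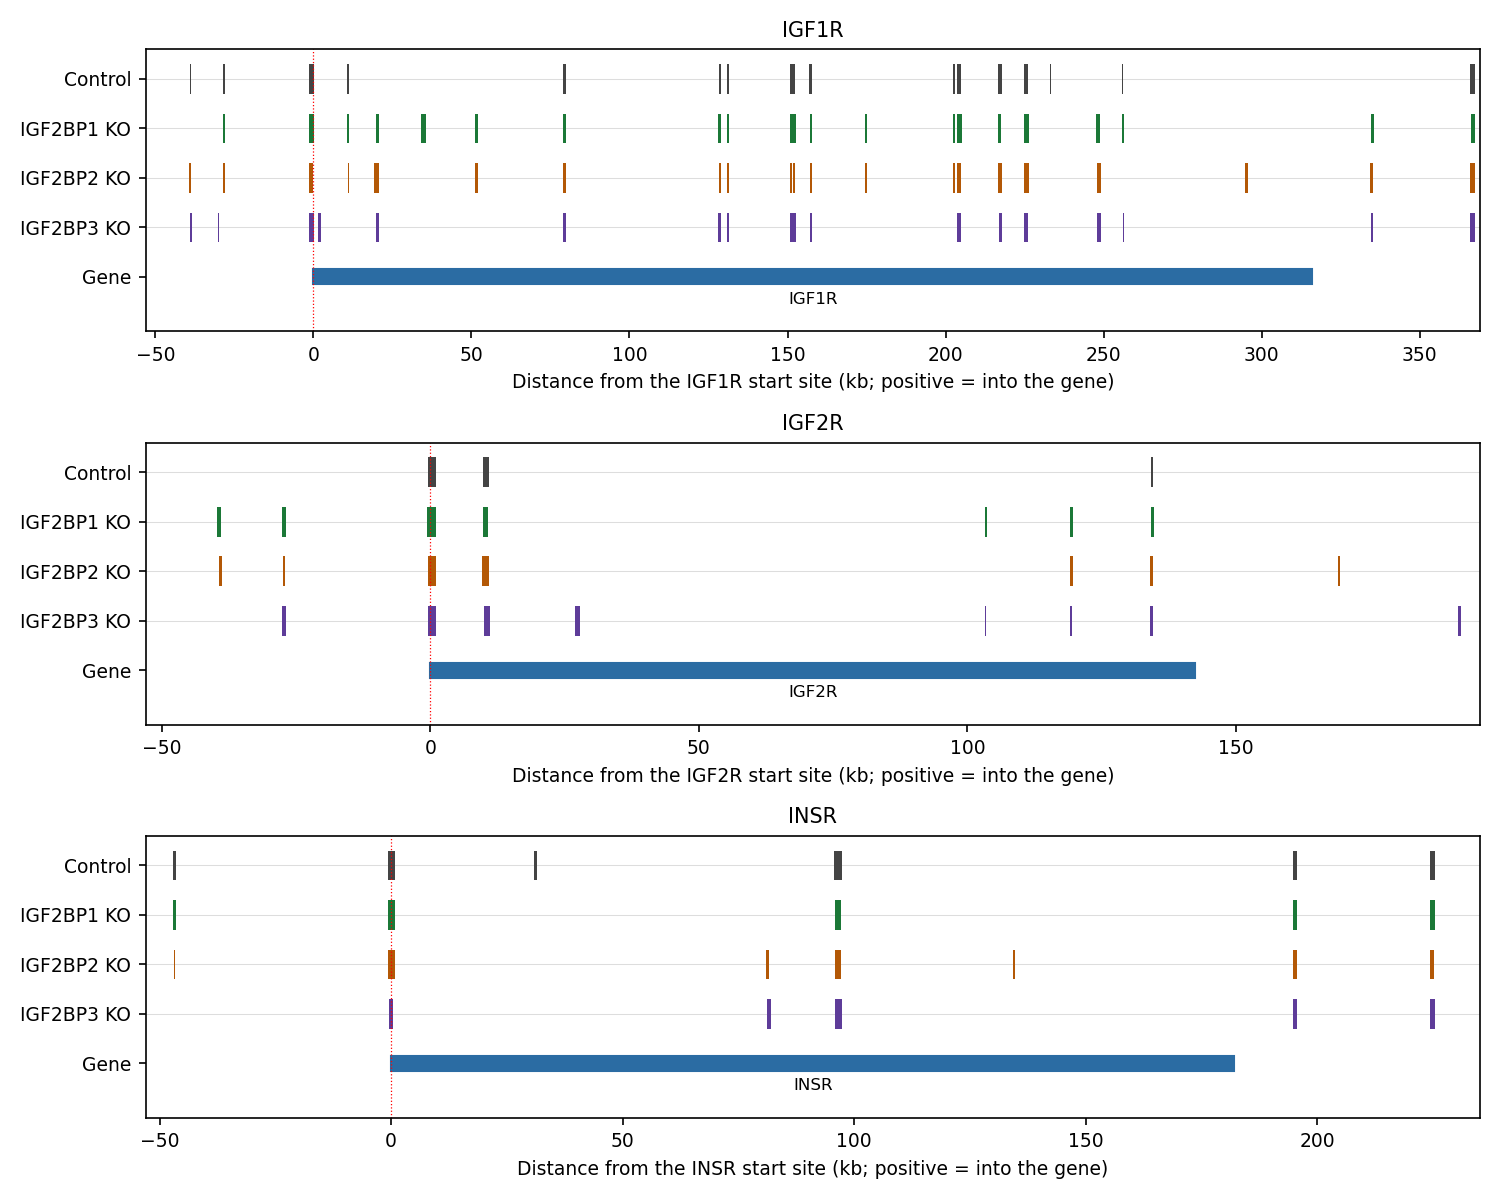
Peaks of each list at IGF1R, IGF2R and INSR against distance in kb from the start site of each gene, positive into the gene; each bar is 1 peak to scale, and the blue bar is the gene. All 4 lists have a peak at each start site, the IGF2R panel has 3 control peaks against 7 or 8 in the knockouts, and the IGF1R panel has a wide peak near 248 kb in the knockouts alone.

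Over the 60 regions, the classes were set beside the genome. Of the members, 26 (43.3%) were in all 4 lists, against 41.5% of all regions, and 12 (20.0%) were in 1 list, against 28.1%. In the IGF2BP1 KO, 13 regions were gained over the control (21.7%, against 22.1% of all regions) and 4 were missing (6.67%, against 5.47%). In the IGF2BP2 KO, 15 were gained (25%, against 33.5%) and 4 missing (6.67%, against 4.66%). In the IGF2BP3 KO, 15 were gained (25%, against 16.6%) and 8 missing (13.3%, against 10.0%). The share missing was somewhat above the background in every knockout. The share gained was close to it in the IGF2BP1 KO, below it in the IGF2BP2 KO and above it in the IGF2BP3 KO. The counts are small, and there is no replicate to set these differences against. In all 3 knockouts but absent from the control were 7 (11.7%, against 6.88%), and in the control alone 2 (3.33%, against 1.98%).

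Single-list regions were 2 in the IGF2BP1 KO (6.03% of all regions are in that list alone), 3 in the IGF2BP2 KO (5.0%, against 15.2%) and 5 in the IGF2BP3 KO (8.33%, against 4.9%). Missing from 1 knockout list only were 2 for IGF2BP1 (1.35% of all regions) and 1 for IGF2BP2 (0.897%). Where a knockout and the control both had a peak, widths were close: the median ratio of knockout to control was 1.03 in the IGF2BP1 KO (33 regions), 0.977 in the IGF2BP2 KO (33 regions) and 0.967 in the IGF2BP3 KO (29 regions), against 1.1, 0.998 and 0.979 over all shared regions. At least 1.5 times wider than the control were 2, 1 and 1 of these in the same order (11.7, 5.1 and 4.21% of all shared regions), and at least 1.5 times narrower 0, 2 and 2 (1.01, 5.8 and 7.63%).

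**Figure D5:**
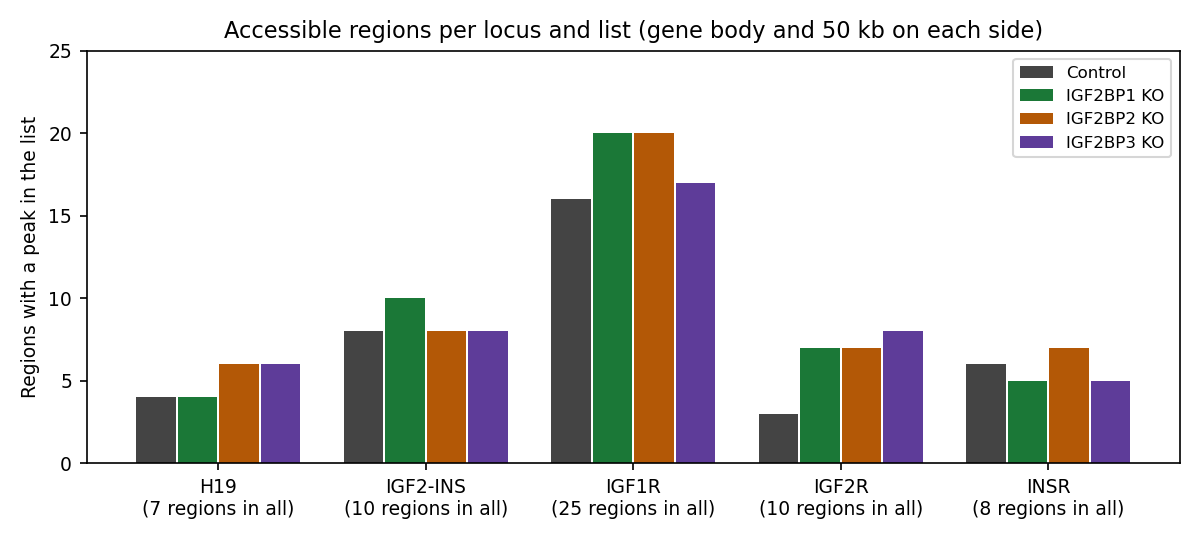
Number of regions with a peak in each list (y axis) at the 5 windows, IGF2 and INS sharing 1 window; the total number of regions is given under each name. IGF2R has 3 regions in the control and 7, 7 and 8 in the knockouts, and INSR has 6 in the control and 5, 7 and 5 in the knockouts.

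The wider insulin and IGF pathway was examined at gene starts, within 1 kb of the annotated start site or, for genes without one in the table, of either gene end. Of 55 listed genes, 47 had a peak there in the control (85.5%, against 64.7% of all protein-coding genes), 48 in the IGF2BP1 KO (87.3%, against 66.8%), 46 in the IGF2BP2 KO (83.6%, against 66.3%) and 46 in the IGF2BP3 KO (83.6%, against 65.5%). A peak in all 4 lists was found at 43 genes (78.2%, against 62.2%) and in none at 6 (10.9%, against 30.9%). The 3 ligand genes IGF1, IGF2 and INS had none in any list. IGF2 was scored at its gene ends only, so its promoters inside the locus were not covered. Its body held a region in all 4 lists. The 4 receptor genes, which include the insulin receptor-related gene INSRR, had one in all lists, as did all 15 kinases and phosphatases, among them PIK3CA, AKT1 and MTOR, and all 3 FOXO transcription factor genes. CTCF was among the 4 of 5 regulators of the locus with a peak in all lists. ZFP57, a zinc finger protein that protects imprints, had none.

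Of the 55 pathway genes, 6 differed between lists. The rest had a peak in all 4 lists (78.2%, against 62.2% of all protein-coding genes) or in none (10.9%, against 30.9%). In the IGF2BP2 KO, the start-site peak of GRB10, an adaptor that dampens receptor signalling, was missing, while it was 1550 bp wide in control, 1648 bp in IGF2BP1 KO and 1365 bp in IGF2BP3 KO cells. FURIN, a protease that processes hormone and receptor precursors including those of IGF1R and INSR, also had none in the IGF2BP2 KO; the summed widths were 479 bp in the control and 1966 and 1655 bp in the IGF2BP1 and IGF2BP3 KO. The binding protein gene IGFBP5 (334, 505 and 366 bp) and the prohormone convertase gene PCSK1 (472, 505 and 982 bp) lacked a peak in the IGF2BP3 KO alone. IGFBP1 had a peak in the IGF2BP2 KO alone (480 bp), and STC1, which encodes a secreted glycoprotein of the stanniocalcin family, in the IGF2BP1 (854 bp) and IGF2BP3 (1115 bp) knockouts. Compared with the control, 1 gene gained a peak in each knockout (2.75, 2.91 and 2.25% of all protein-coding genes did so in IGF2BP1, IGF2BP2 and IGF2BP3 KO), and 0, 2 and 2 lost one (0.728, 1.36 and 1.46%).

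The labelled cell type was checked at marker genes. Of 9 genes of embryonic kidney or of the neurofilament type known in this line, 6, 6, 6 and 7 had a gene-start peak in the control and IGF2BP1, IGF2BP2 and IGF2BP3 KO lists; PAX2 had none in any list. Of 7 leukocyte markers, PTPRC and MPO had none in any list, and 3, 4, 3 and 3 genes had one (SPI1, CD34 and KIT in all lists). Of the liver markers ALB, AFP, HNF4A and APOA1, only APOA1 had a peak, and of 3 fibroblast collagen genes 1, 1, 2 and 1 had one. A peak at a gene start does not measure expression.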

How the data were processed

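ATAC-seq libraries of HEK293T cells from 9 samples were summarised by the authors in 4 deposited peak lists, 1 per group. Per the file columns, a list holds peak positions (chromosome, start, end) and no score or other value. Per the submitters' processing notes, fastp 0.24.1, BWA 0.7.17, MACS2 (given with version 3.0.0), bedtools and GRCh38 were used; their roles, the peak threshold and the way libraries were combined are not given in the sources used here. Starts were converted to positions counted from 1. Gene spans and names came from RefSeq (GRCh38.p14), and start sites and promoter bases from its promoter table; 5 of the 6 member genes had an entry. All 55 pathway symbols matched. For genes without an entry, either gene end was used.

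Lists were compared with Python 3.11.15, pandas 2.3.3 and numpy 2.4.6, and region building was tested on simulated peaks. Regions, windows and ratios are defined where first used. Because no list has replicates, no test was made. The regions given in full were every region at a member's start site, every region at IGF2, H19 and INS, the widest shared receptor regions, and those in all knockouts or the control alone; others were chosen after their values were seen. The members, gene lists and comparisons were chosen with earlier results of these data known. Planned as 1 window, IGF2 and H19 were treated as 2, since their 50 kb flanks do not meet. Alternatives covered the overlap rule, the 39194 widest peaks of each list, merging within 500 bp, flanks of 10 and 100 kb, trimming to 200 bp, and the distance from a start site (500 bp and 2 kb). Some genes of the pathway and marker lists are counted but not reported here by name.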

Additional observations from a re-analysis of the deposited data

How the results depend on the processing

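No paired analysis was possible because each group has a single list with no values per library, and leaving out a library was impossible for the same reason. Of the 60 regions, 38 were held by the same number of lists when each list was shortened to its 39194 widest peaks, which left 56 regions. Merging peaks closer than 500 bp gave 60 regions, and trimming peaks to 200 bp gave 67. With the widest peaks, which remove none from the control list and remove peaks under 612, 541 and 401 bp from the IGF2BP1, IGF2BP2 and IGF2BP3 KO lists, regions missing against the control rose to 13 in the IGF2BP1 KO and 11 in the IGF2BP2 KO, and regions gained in the IGF2BP2 KO fell to 7. Of the 7 regions in all 3 knockouts but absent from the control, 3 kept these lists. Requiring an overlap of 50% of the shorter peak moved none of the 15 counts by over 1.5 times, nor did a flank of 100 kb (71 regions). A flank of 10 kb left 36 regions by construction. The lists then held 23 (control), 29, 29 and 25 peaks. Regions gained were 8, 8 and 7, regions missing were 2 in the IGF2BP1 KO and 5 in the IGF2BP3 KO, 17 regions were in all 4 lists, and the covered length in the IGF2BP3 KO was 23.9 kb against 38.0 kb. Trimming peaks to 200 bp reduced the covered length by construction, to 7.2 kb in the control and 9.0, 9.6 and 8.6 kb in the knockouts. The pathway counts at gene starts stayed within 1.5 times under every alternative run on them. Read depth, which decides whether a weak site is listed, is unknown, so a missing peak does not show closed chromatin.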

Other observations

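The window rule left 27850 bases between the flanks of H19 and IGF2, and no region of any list lay there. From the H19 start site to the IGF2 span, all lists together held 4 regions: the site just upstream of H19 and those at 2036433 to 2037541, 2089061 to 2089983 and 2097196 to 2098174. Just outside the windows, the nearest region to IGF1R ended 0.697 kb below the lower edge and was in 2 lists, and the nearest beyond IGF2R began 6.21 kb above the upper edge and was in 3 lists.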
